A study of Mus musculus with 16 samples.

Results

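The 10 genes described here encode insulin, the hormone stored with it and the proteins that process and pack both: Ins1, Ins2, Iapp, Pcsk1, Pcsk2, Pcsk1n, Cpe, Chga, Chgb and Slc30a8. They were chosen by symbol for their known roles, and all 10 of the 17864 genes listed in at least 1 of the 2 deposited tables were found in both tables and passed the filter on low values. Islet RNA was sequenced from 16 libraries in 4 groups of 4. Flox mice, homozygous for a B7-H4 allele (gene Vtcn1) with loxP sites around its second exon, and B7-H4 cKO mice, which carried the same alleles and the Rip-Cre transgene, were fed a normal chow diet. Rip-Cre is driven by the rat insulin II promoter, and islets with Rip-Cre but without the floxed alleles were not analysed here, so the transgene and the deletion cannot be told apart. The other 2 groups were on a high-fat diet (HFD), begun at 6 weeks of age, and after 8 weeks received a virus into the pancreatic duct, with islets taken 5 weeks later. The Ctrl group received the control virus and the OE group received AAV2/8 with B7-H4 under the rat insulin promoter. The deposited design calls these recipients wild type and the study's methods call them Flox. Sex, the age of the chow-fed mice at islet isolation and whether islets of several mice were pooled are not given in the sources used here, so p-values measure the spread between these libraries.

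Insulin is made as preproinsulin, which folds in the endoplasmic reticulum, and proinsulin is then cut in the secretory granule. The prohormone convertases PC1/3 (Pcsk1) and PC2 (Pcsk2) make the cuts, and carboxypeptidase E (Cpe) trims the basic residues that are left. The mature hormone is stored with zinc that the transporter ZnT8 (Slc30a8) brings in, in granules that also hold amylin (Iapp) and the granins (Chga, Chgb). Mice carry a pair of insulin genes, Ins1 and Ins2, of which Ins2 is the ancestral one.

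The coding sequences of Ins1 and Ins2 are shown first, because the main contrast below is between these near-identical genes. Aligned end to end, the Ins1 (324 bases) and Ins2 (330 bases) coding sequences of the mm10 annotation matched in 300 of 330 columns, or 90.9%, and the longest identical run was 54 bases. Of all stretches of 90 aligned columns, the most alike held 2 differences, and capitals mark the bases that differ. They lie at chr19:52264721-52264810 on the plus strand for Ins1 and at chr7:142679347-142679436 on the minus strand for Ins2.
Ins1: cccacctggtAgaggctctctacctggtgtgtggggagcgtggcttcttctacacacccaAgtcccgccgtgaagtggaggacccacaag
Ins2: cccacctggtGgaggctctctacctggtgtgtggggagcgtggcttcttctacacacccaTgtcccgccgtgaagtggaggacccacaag
The stretch with the most differences held 15 differing columns, gaps included, at chr19:52264810-52264893 for Ins1 and, joined across an intron, at chr7:142678770-142679347 for Ins2.
Ins1: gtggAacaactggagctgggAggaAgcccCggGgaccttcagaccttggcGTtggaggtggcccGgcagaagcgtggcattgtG
Ins2: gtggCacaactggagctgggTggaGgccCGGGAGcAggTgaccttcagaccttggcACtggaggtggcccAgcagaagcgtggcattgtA
How reads that match both genes were assigned is not given in the sources used here, so the level of each insulin gene is uncertain to that extent.

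The promoters of Pcsk1 and Chgb are shown because these genes followed each other and departed from the other members in the chow-fed libraries. RefSeq windows (GRCm38.p6) from 250 bases before to 50 after the gene start were found for 7 of the 10 genes, without Ins2, Cpe and Slc30a8. The palindrome TGACGTCA, the full cAMP response element, was in 2 of the 7, Pcsk1 and Chgb, and in 1.79% of all 32851 windows searched on both strands. Its shorter form TGACGT, which the palindrome contains, was also in Chga and in 7.51% of all windows. The 250 bases before each start are printed with these matches in capitals, at chr13:75089607-75089856 and chr2:132781392-132781641, both on the plus strand.
Pcsk1: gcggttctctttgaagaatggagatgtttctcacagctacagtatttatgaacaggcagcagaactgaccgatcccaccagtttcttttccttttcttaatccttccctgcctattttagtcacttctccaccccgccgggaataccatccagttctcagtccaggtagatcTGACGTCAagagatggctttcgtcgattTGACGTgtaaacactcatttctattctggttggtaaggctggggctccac
Chgb: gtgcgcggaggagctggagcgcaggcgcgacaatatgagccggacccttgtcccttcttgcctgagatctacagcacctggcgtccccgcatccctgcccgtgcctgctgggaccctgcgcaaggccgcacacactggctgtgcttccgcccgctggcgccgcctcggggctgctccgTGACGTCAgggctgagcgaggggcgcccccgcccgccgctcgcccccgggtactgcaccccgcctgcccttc
The matches describe the letters of these windows and are not evidence of binding. Pcsk1 and Chgb were picked for their pattern in these libraries, and any part of the motif in that pattern was not tested.

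Levels are FPKM (fragments scaled by gene length and by the mapped fragments of the library), in which a gene rises when other genes take fewer reads. Read numbers were not in the tables. The commonest ratio between the lowest values of 2 libraries gave depths of 0.942 to 1.07 of the median in the chow table and 0.841 to 1.08 in the HFD table, so counting error is unknown but depth was alike. Vtcn1 was at 0.0188 to 0.216 FPKM in the Flox libraries and 0.0202 to 0.125 in the cKO libraries, which is too low to check the deletion. It was at 0.0636 to 0.371 FPKM in Ctrl and 40.0 to 128 in OE.

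The libraries differed in RNA of the exocrine pancreas. The 17 digestive enzyme genes of the acinar list in these tables took 35.8 to 45.3% of summed FPKM in cKO. In Flox they took 27.4% in Flox16, 35.05% in Flox17, 10.6% in Flox20 and 7.34% in Flox21. In Ctrl they took 5.42% in Ctrl1, 56.1% in Ctrl2, 72.8% in Ctrl3 and 2.12% in Ctrl5, against 10.9 to 14.2% in OE. Ctrl5 stood apart in another way, with the 6 α-cell markers at 13.2% of summed FPKM against 0.107 to 3.33% in the other Ctrl libraries. The β-cell list (Pdx1, Mafa and 8 others) was detected in every library, and took 0.265 to 0.363% in cKO, 0.238 to 0.388% in Flox, 0.304 to 0.350% in OE and 0.0305 to 0.363% in Ctrl. In bulk islet RNA fewer β cells and less RNA per β cell cannot be told apart.

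Together the 10 genes took 26.3 to 33.6% of summed FPKM in cKO, 36.2 to 55.7% in Flox, 4.47 to 56.4% in Ctrl and 48.6 to 52.8% in OE. Ins2 was the highest gene, ranking between 1 and 10 of all genes by FPKM over the 16 libraries, followed by Ins1 at ranks 2 to 22 and Iapp at ranks 3 to 25. Chga ranked between 5 and 40. Pcsk1, which makes the first cut of proinsulin, was the lowest member, at ranks 167 to 1432. The order of the group means for Ins2 was OE, Flox, Ctrl and cKO, at 238854 ± 10810, 213779 ± 36642, 142765 ± 97277 and 128640 ± 13430 FPKM (SD, n = 4), and no neighbours in that order were separated without overlap. The chow and HFD tables were normalized separately, so levels across them are given side by side and were not tested.

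**Figure D1:**
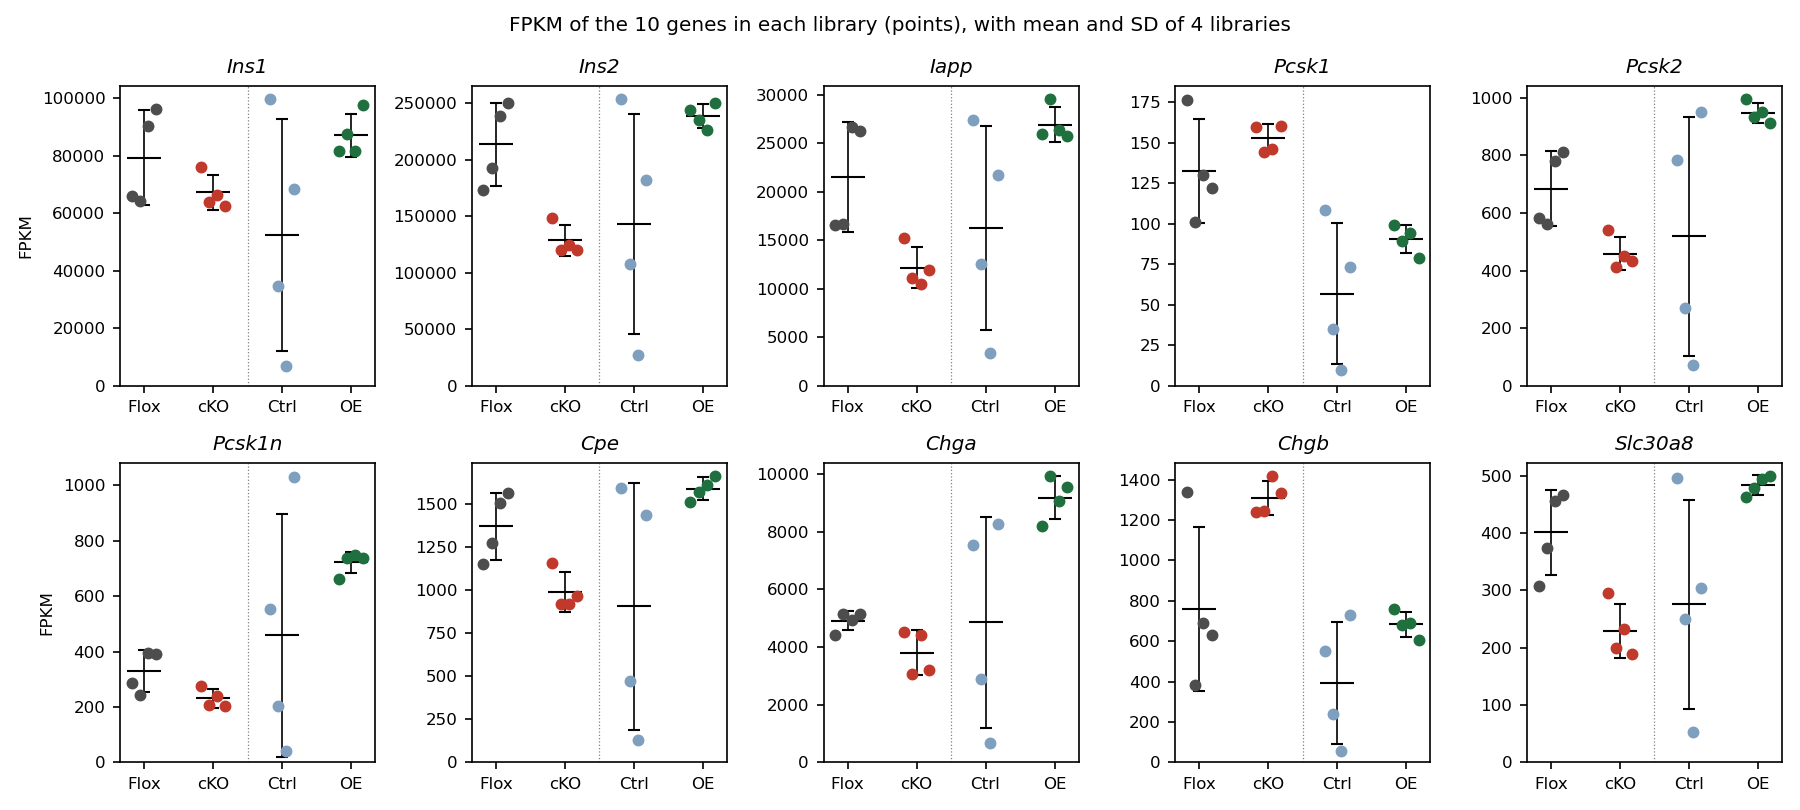
FPKM (linear axis) of each of the 10 genes in every library (points) by group, with mean and SD of 4 libraries in black and a dotted line between the chow and HFD tables. Ins2 in cKO lies below every Flox library, Flox16 lies with cKO for Chgb, and the Ctrl libraries spread far more than the OE libraries.

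B7-H4 cKO was compared with Flox to ask how the genes of insulin production differ when B7-H4 is lost in β cells. Of the 10 genes, 7 were lower in cKO, by 0.39 to 0.81 on the log2 scale, and none was higher at an adjusted p under 0.05 (limma on log2(FPKM + 0.5), adjusted over 11804 genes). Among all genes tested, 12.8% were lower and 1.02% higher by the same rule. None of the 10 also passed an absolute log2 fold change of 1, which 1.31% of all genes did. The median log2 fold change was -0.48 over the 10 genes and -0.34 over all genes, so most genes read lower in cKO on this scale.

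Ins2 was at 148534, 120477, 125001 and 120548 FPKM in cKO8, cKO9, cKO12 and cKO38. It was at 173310, 192933, 238284 and 250591 FPKM in Flox16, Flox17, Flox20 and Flox21. Every cKO library lay below every Flox library, and the difference was a fall to 0.606 of the Flox level (log2 fold change -0.72, SE 0.12, limma adjusted p = 0.00744). Ins1 was at 75918.5, 64027, 66227 and 62534 FPKM in the same cKO libraries and at 66105, 64125, 90297 and 96217 FPKM in the Flox libraries. These groups overlapped, and Ins1 did not pass the test (-0.22, SE 0.13, limma adjusted p = 0.184).

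Iapp, which encodes amylin, the peptide released with insulin, was at 10497 to 15204 FPKM in cKO and 16552 to 26691 in Flox. Its groups did not overlap, and its log2 fold change was -0.80 (SE 0.19, limma adjusted p = 0.0344). Iapp moved with Ins2, and the Iapp to Ins2 ratio was 0.0944 ± 0.0082 in cKO and 0.0997 ± 0.011 in Flox (SD, n = 4), a difference of -0.08 on the log2 scale (exact permutation p = 0.514).

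Among the processing genes, Pcsk2 and Cpe were lower in cKO and Pcsk1 was not. Pcsk2 was at 414 to 542 FPKM in cKO and 561 to 813 in Flox, without overlap (log2 fold change -0.56, SE 0.14, limma adjusted p = 0.0213). Cpe was at 918 to 1160.1 FPKM in cKO and 1151 to 1565 in Flox, where cKO8 and Flox16 overlapped (-0.47, SE 0.12, limma adjusted p = 0.0253). Pcsk1n, which encodes proSAAS, an inhibitor of PC1/3, was at 202 to 275 FPKM in cKO and 244 to 394 in Flox (-0.49, SE 0.16, limma adjusted p = 0.0442). Of all genes tested, 17.2% had a lower log2 fold change than Pcsk2, 25.8% than Pcsk1n and 29.3% than Cpe. Exons of Pcsk2 overlap antisense genes and those of Pcsk1n overlap Eras on the other strand, and whether counting used strand is not given in the sources used here.

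Pcsk1 was at 159.9, 145, 146 and 161 FPKM in cKO8, cKO9, cKO12 and cKO38. It was at 177, 101, 129.9 and 122 FPKM in Flox16, Flox17, Flox20 and Flox21. Flox16 was above all cKO libraries and the other Flox libraries were below them. The log2 fold change of 0.23 (SE 0.15) did not pass (limma adjusted p = 0.232), and it was higher than that of 93.6% of all genes tested.

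Chgb, which encodes secretogranin I, a granin of the granule core, was at 1242, 1246, 1416 and 1335 FPKM in the cKO libraries. It was at 1337, 383, 692 and 628 FPKM in Flox16, Flox17, Flox20 and Flox21. As for Pcsk1, Flox16 stood with the cKO libraries. The log2 fold change was 0.93 (SE 0.36, limma adjusted p = 0.108) with all libraries, so Chgb was not called. With 1 library left out it ranged from 0.65 without Flox17 (limma adjusted p = 0.0514) to 1.25 without Flox16 (limma adjusted p = 3.03e-05), and the adjusted p was 0.145 to 0.251 without each of the others. Flox16 drew attention because it stood with cKO, so the value without it is a description. Chga, the other granin, was at 3063 to 4530 FPKM in cKO and 4430 to 5151 in Flox, and was lower in cKO (-0.39, SE 0.13, limma adjusted p = 0.0452). Its fall was near that of a typical gene, as 41.8% of all genes had a lower log2 fold change and the median was -0.34.

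Slc30a8, the zinc transporter of the granule, was at 189 to 295 FPKM in cKO and 308 to 466 in Flox, without overlap. Its log2 fold change of -0.81 (SE 0.16, limma adjusted p = 0.0141) was lower than that of all but 4.31% of genes. In all, 4 of the 10 genes (Ins2, Iapp, Pcsk2 and Slc30a8) were lower in every cKO library than in any Flox library, which held for 15.4% of all genes, and none was higher in this way, which held for 1.32%.

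These falls rested on the scale and on the libraries. With libraries divided by a median-of-ratios factor, by the sum outside the acinar list or by 10 β-cell genes, none of the 10 was called lower, while Ins1 turned to 0.17, 0.16 and 0.013 on the log2 scale and Ins2 stayed lower, at -0.34, -0.35 and -0.49. Few genes of any kind were called lower in these 3 fits, 147 of 11782, 33 of 11814 and 351 of 11806. Under median-of-ratios scaling Chga was at -0.0054, Cpe at -0.081 and Pcsk1n at -0.11. The exact permutation test gave p = 0.0286 for Ins2 under each of these scalings, unadjusted and the smallest p that 4 against 4 libraries allow. The same exact p was reached in the other direction by Ins1 and Chgb, higher in cKO under median-of-ratios scaling. With scaling to the sum outside the acinar list Chgb reached it higher and Iapp lower, and with the β-cell genes Slc30a8 reached it lower. The share of all genes that reached this exact p after scaling was not counted, so the members cannot be set against it. By another test, limma p under 0.05 before adjustment, 1680 genes were higher and 1513 lower of 11782 under median-of-ratios scaling. These counts were 1475 and 1072 of 11814 outside the acinar list and 691 and 2647 of 11806 with the β-cell genes. In the limma fits with the variance trend, the SE of Ins2 was 0.63 under median-of-ratios scaling while its own libraries gave 0.094, and without the trend no member was called in either direction under these scalings. The fits without the trend called 51 of 11782, 14 of 11814 and 118 of 11806 genes lower and 72, 50 and 24 higher. With the trend, Chgb was called higher under scaling by the β-cell genes (1.16, SE 0.28, limma adjusted p = 0.0494, and exact permutation p = 0.0571), where 57 of 11806 genes were called higher. When single libraries were left out of the values as deposited, the number of members called was 1 without cKO9 or Flox21, 2 without cKO38 or Flox20, 3 without cKO12, and 6 to 8 without cKO8, Flox16 or Flox17. The number of all genes called lower also moved. It was 17 of 11836 without cKO9, 117 of 11735 without Flox21, 72 of 11851 without cKO38 and 119 of 11768 without Flox20. It was 329 of 11827 without cKO12, 1525 of 11795 without cKO8, 2509 of 11800 without Flox16 and 6759 of 11821 without Flox17. Ins2 kept its call except without Flox21 (limma adjusted p = 0.119) and Slc30a8 except without cKO9 (limma adjusted p = 0.0576), while Chga kept its call only without cKO8 or Flox16. Testing only genes averaging 5 FPKM or more left 5 members called, without Ins2 (limma adjusted p = 0.127) and Chga (limma adjusted p = 0.109), while 1657 of 6224 genes were called lower.

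**Figure D2:**
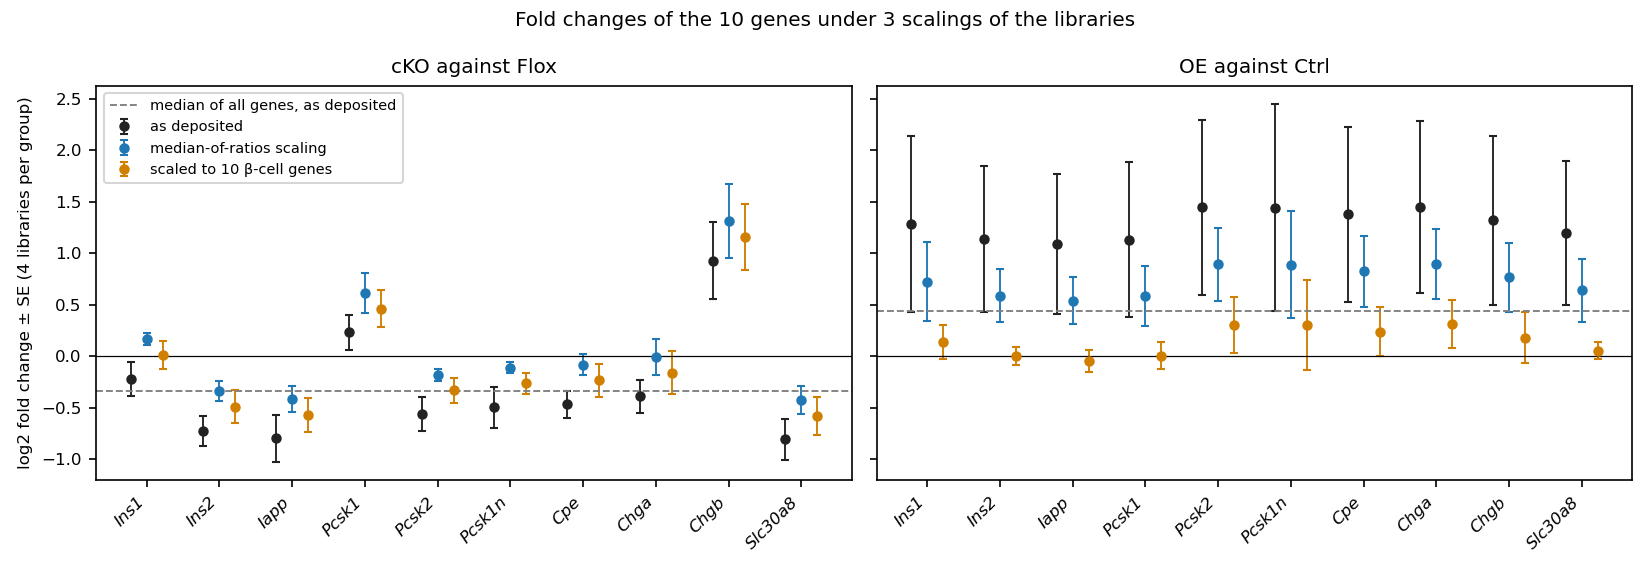
Log2 fold change of the 10 genes with the SE of the 4 libraries per group, as deposited and under 2 scalings, for cKO against Flox (left) and OE against Ctrl (right), with the median of all genes dashed. Ins1 moves from -0.22 to 0.17 under median-of-ratios scaling, whereas Ins2 stays below 0 in the left panel.

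No Flox library reached the acinar share of any cKO library, so its part in these differences and that of the genotype cannot be told apart by group alone. cKO8 and Flox17 had nearly equal acinar shares, at 35.8% and 35.05%. Side by side, Ins2 was at 148534 FPKM in cKO8 and 192933 in Flox17, Ins1 at 75918.5 and 64125, Pcsk1 at 159.9 and 101, and Chgb at 1242 and 383. These are single libraries, and Flox17 had the lowest Pcsk1 and Chgb of the Flox group. Flox16, the next nearest Flox library at 27.4%, had Pcsk1 at 177 and Chgb at 1337 FPKM, above cKO8. Its Ins2 of 173310 FPKM was also above cKO8 and its Ins1 of 66105 FPKM was below. With the mean log2 level of the acinar list as a covariate, limma called no gene of 11804, while 324 genes had a higher and 522 a lower level before adjustment (p under 0.05), and Ins2 was at -0.42 (SE 0.094, unadjusted p = 0.0011).

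**Figure D3:**
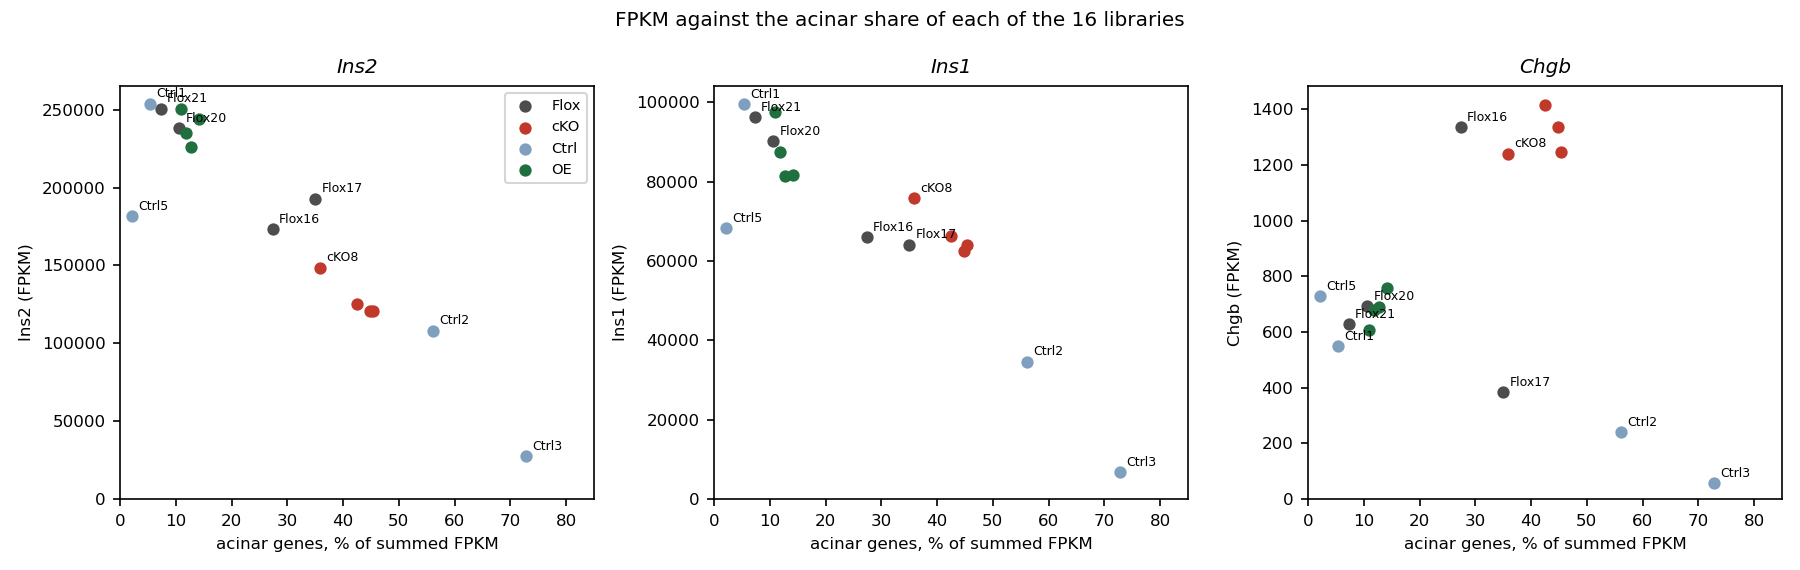
FPKM of Ins2, Ins1 and Chgb (linear axes) against the percentage of summed FPKM in the acinar list for the 16 libraries, coloured by group. Ins2 is lowest in Ctrl3, at 27348 FPKM and the highest share, but Ctrl5, with the lowest share, has 181782 FPKM, below Flox17 and all OE libraries, while Chgb is high in all 4 cKO libraries and in Flox16.

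Ratios between members within a library do not depend on how the library was scaled. The Ins1 to Ins2 ratio was 0.511, 0.531, 0.5298 and 0.519 in cKO8, cKO9, cKO12 and cKO38. It was 0.381, 0.332, 0.379 and 0.384 in Flox16, Flox17, Flox20 and Flox21. The cKO ratios were close together and above every Flox ratio, by 1.42-fold (0.50 on the log2 scale, exact two-sided permutation p = 0.0286, adjusted over 18 ratios p = 0.129). In the HFD table the ratio was 0.252 to 0.392 in Ctrl and 0.334 to 0.389 in OE, and its lowest values were in Ctrl3 and Ctrl2, the libraries with the highest acinar shares.

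Of the 9 ratios, 4 separated cKO from Flox, all higher in cKO. Pcsk1 to Ins2 was 1.94-fold higher, Cpe to Ins2 1.19-fold and Pcsk2 to Ins2 1.12-fold, each with an exact permutation p = 0.0286 and p = 0.129 after adjustment. The Pcsk1 to Ins2 ratio was 0.00108, 0.0012, 0.00117 and 0.00133 in cKO8, cKO9, cKO12 and cKO38 and 0.00102, 0.000525, 0.000545 and 0.000489 in Flox16, Flox17, Flox20 and Flox21, so Flox16 came closest to cKO. Over all genes, 28.6% were separated in this direction when divided by Ins2, so a rise against Ins2 was common. Slc30a8 to Ins2 was 0.94-fold (exact permutation p = 0.343).

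In cKO the Pcsk1 to Pcsk2 ratio leaned higher and the Chga to Chgb ratio lower than in most Flox libraries. The Pcsk1 to Pcsk2 ratio was 0.295 to 0.372 in cKO and 0.302, 0.181, 0.166 and 0.151 in Flox16, Flox17, Flox20 and Flox21 (exact permutation p = 0.0571). The Chga to Chgb ratio was 2.40 to 3.65 in cKO and 3.31 to 13.4 in Flox (exact permutation p = 0.0571). In both ratios the overlap was between Flox16 and cKO8. With Flox16 left out the log2 differences were 1.01 and -1.69 and with cKO8 left out 0.86 and -1.43, and the groups then did not overlap, which follows from leaving out a library of the overlap, chosen after its values were seen. With any other library left out both ratios still overlapped (exact permutation p = 0.0571 to 0.0857).

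**Figure D4:**
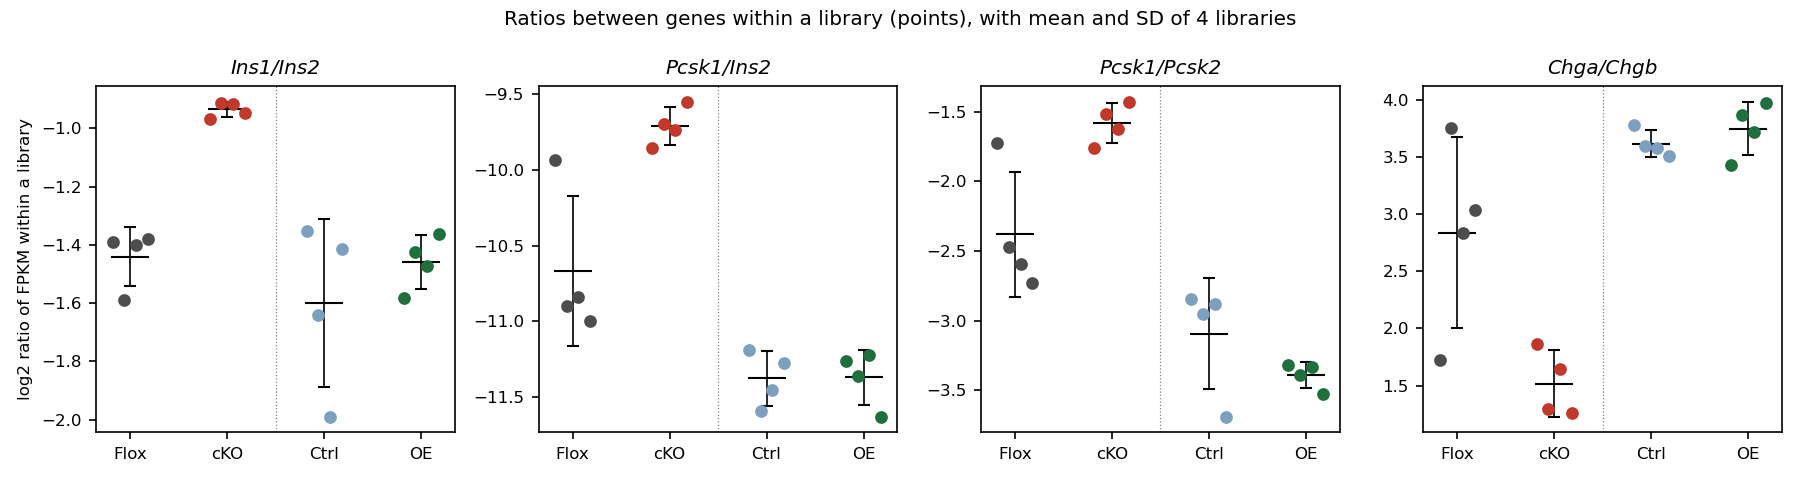
Log2 ratio of FPKM between members within each library (points) by group, with mean and SD of 4 libraries in black. The 4 cKO libraries lie between -0.97 and -0.91 for Ins1 to Ins2, above all Flox libraries, and Flox16 lies near cKO in the other 3 panels.

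OE was compared with Ctrl to ask how the same genes differ when B7-H4 is supplied to β cells of HFD-fed mice. All 10 genes had higher means in OE, with log2 fold changes of 1.09 to 1.45, and none passed the test (limma adjusted p = 0.591 each). The median log2 fold change was 1.30 over the 10 genes and 0.44 over all genes. Each of the 10 was higher than that of 95.5 to 99.3% of all genes. Of all 12132 genes tested 0.033% were called higher, and 5 of the 10 members had an unadjusted limma p under 0.05, against 5.58% of all genes higher at that p and against no member in the exact permutation test. The OE libraries were alike and the Ctrl libraries were not. The coefficient of variation over 4 libraries was 3.45 to 9.57% in OE and 64.8 to 95.6% in Ctrl.

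Ins2 was at 244274, 234692, 225914 and 250535 FPKM in OE1 to OE4. It was at 253857, 108072, 27348 and 181782 FPKM in Ctrl1, Ctrl2, Ctrl3 and Ctrl5. Ctrl1 was above all OE libraries, and the low values were in Ctrl2 and Ctrl3. None of the 10 genes was higher in every OE library than in any Ctrl library, which held for 5.61% of all genes.

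Each of the other members was also lowest in Ctrl3 and next lowest in Ctrl2 within its group. Pcsk1 was at 109, 35.1, 9.75 and 73.5 FPKM in Ctrl1, Ctrl2, Ctrl3 and Ctrl5 and at 79.2 to 99.5 in OE. Chgb was at 549.6, 239.9, 57.6 and 728 FPKM in these Ctrl libraries and at 608 to 758 in OE. Chga was at 7546, 2906, 689 and 8285 FPKM in the Ctrl libraries and at 8187 to 9935 in OE, and Slc30a8 was at 495, 250.25, 52.2 and 305 and at 463 to 499.6. Without Ctrl2 and Ctrl3, an exclusion chosen after the data were seen, the log2 fold changes of the 10 genes lay between -0.07 and 0.32 and none was called. That fit called 301 of 12311 genes higher and 2692 lower, and the median log2 fold change over all genes was -0.21. After median-of-ratios scaling, Ins2 was at 0.59 on the log2 scale with an exact permutation p = 0.0286, and 7 of the 10 genes were higher without overlap, which held for 11.9% of all genes under that scaling, with no member called by limma. With the acinar list as a covariate, Pcsk2, Pcsk1n, Cpe, Chga and Chgb were called higher (limma adjusted p = 0.038 to 0.0454), as were 10.9% of all genes in that fit.

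Ctrl5, with Gcg at 91444 FPKM, had the highest Pcsk1n of all libraries, at 1031 FPKM against 41.6 to 554 in the other Ctrl libraries and 663 to 747 in OE. Pcsk2, the convertase that α cells use to make glucagon, was at 949 FPKM in Ctrl5, the highest of the Ctrl libraries and within the 914 to 995 of OE. The Pcsk1 to Pcsk2 ratio was 0.0775 in Ctrl5, 0.129 to 0.139 in the other Ctrl libraries and 0.0867 to 0.09998 in OE. None of the 9 ratios separated OE from Ctrl with all libraries. Without Ctrl5, left out after its values were seen, 3 ratios no longer overlapped, with log2 differences of -0.50 for Pcsk1 to Pcsk2, 0.54 for Pcsk2 to Ins2 and 0.67 for Pcsk1n to Pcsk1, and none did so with any other single library left out. The part of α-cell RNA in these values was not tested.

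Lists of further genes of granule biology were described beside the members. In the same comparison of cKO with Flox, 12.8% of all genes were called lower and 1.02% higher. Of 10 other granule proteins, 6 were lower in cKO and none higher, with a median log2 fold change of -0.52. Scg2, a granin, was at 1059 to 1570 FPKM in cKO and 1741 to 2503 in Flox (-0.78, SE 0.15, limma adjusted p = 0.0141). Scg5, the chaperone of PC2 known as 7B2, was lower by the same test (-0.66, SE 0.14, limma adjusted p = 0.0162), as were Resp18 (-0.57) and Pam, the enzyme that amidates peptide hormones (-0.69). Of 6 other convertases and carboxypeptidases tested, 1 was lower, Pcsk6 (-1.07, SE 0.27, limma adjusted p = 0.027), while Cpd (-0.60), Furin (-0.38) and Pcsk4 (-0.59) did not pass.

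Against the 12.8% of all genes called lower in cKO, 3 of 10 genes of proinsulin folding were lower. They were Ero1b, an oxidase that drives disulfide formation (-0.67, SE 0.14, limma adjusted p = 0.0147), Hsp90b1 (-0.47) and Pdia3 (-0.46), and Hspa5, the chaperone BiP, was at -0.54 and just missed the threshold (limma adjusted p = 0.0501). Of 11 genes of granule formation and zinc transport, 3 were lower, Atp6ap2 (-0.63), Arfip1 (-0.61) and Slc30a5 (-0.61), and Ica1 (-0.46) did not pass. None of 8 regulators of the insulin genes passed, with Isl1 at -0.56 (limma adjusted p = 0.0501), Pax6 at -0.52, Neurod1 at -0.60 and Mlxipl at -0.93. The medians of these lists, -0.45 to -0.52, lay near the -0.34 of all genes. Under median-of-ratios or β-cell scaling no gene of any list was called, in fits that called 147 of 11782 and 351 of 11806 genes lower.

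In OE against Ctrl no gene of these 5 lists was called. The smallest p-values were those of Ptprn2, a granule membrane protein (1.43, SE 0.52), Nkx6-1, a β-cell transcription factor (1.38, SE 0.56), Pcsk6 (0.90, SE 0.42), Atp6ap2 (0.95, SE 0.52) and Hspa5 (0.77, SE 0.43), all at a limma adjusted p = 0.591. List medians were 0.57 to 1.09, against 0.44 over all genes.

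Pcsk1 and Chgb followed each other within the chow table (Pearson r = 0.93 over 8 libraries of 2 groups, given as a description). Their r with each of the other members was negative, and weak for some. For Pcsk1 it ran from -0.56 with Slc30a8 to -0.25 with Pcsk1n, and was -0.54 with Ins2. For Chgb it ran from -0.74 with Slc30a8 and with Ins2 to -0.38 with Ins1. In the HFD table all pairs of members had r of at least 0.92, over libraries that shared the spread of acinar RNA. Among 5773 genes at a mean of at least 5 FPKM in both tables, the genes most like Ins2 by the lower of the 2 tables' r were Atp6ap2, B4galt6, Ucn3, Scg2 and Fbxo3, at 0.98 to 0.99. Those most like Iapp were Bpnt1, Scg2, Rybp, Fbxo2 and Kat6a, at 0.98 to 0.99, and those most like Pcsk1 were Abraxas2, Aldh18a1, Kl, Hopx and Igfals, at 0.96 to 0.98.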

How the data were processed

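Islet RNA of 16 mouse libraries was sequenced by the authors on an Illumina instrument. They deposited FPKM values per gene and library in 2 tables, normalized separately, and the build is mm10 per the submitters' processing notes. The aligner, counting tool and annotation are not given in the sources used here. All 16 columns were mapped to groups by their labels.

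Genes averaging 0.5 FPKM or more over the 8 libraries of a table were tested on log2(FPKM + 0.5), a scale that understates changes of low genes, with limma 3.58.1 in R 4.3.3 (trend, robust), Benjamini-Hochberg adjusted over all genes of each comparison. Ratios within libraries were compared by exact two-sided permutation and adjusted over 18 ratios. Calling was tested on simulated data with noise drawn independently for each gene. That simulation held no shift shared by the genes of a library, so it cannot show how calling behaves under one. The members, lists and tests were chosen with earlier results of these data known. Named genes are the 10 members, up to 4 genes per list with the smallest p (1 per list for OE against Ctrl), the 5 genes most like Ins2, Iapp and Pcsk1, and the top gene of a marker list. Alternatives covered pseudocounts, filters, scalings, an acinar covariate, a replicate block, fits without trend, and libraries left out. Scalings without the trend, exact tests after scaling, and the fit without Ctrl2 and Ctrl3 were added after the data were seen. Sequences came from RefSeq and GENCODE annotation of the same build, with alignment in Biopython 1.88.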

Additional observations from a re-analysis of the deposited data

Results flagged for a closer look

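In 76 groups of 4 libraries tested for a library far from the others, 6 were flagged, and chance flags about 1 in 20. The value is the gap to the nearest library over the whole range of the group. It was 0.839 for Ins2 in cKO, where cKO8 was highest, and cKO8 also had the lowest acinar share of its group, at 35.8%. It was 0.831 for Iapp in OE, where OE2 was highest, and 0.878 for Pcsk1n in OE, where OE1 was lowest. Of the log2 ratios, Ins1 to Ins2 in Flox gave 0.909, with Flox17 lowest, and Pcsk1 to Ins2 in Flox gave 0.851, with Flox16 highest. Pcsk1 to Pcsk2 in Ctrl gave 0.876, with Ctrl5 lowest, the library with an α-cell share of 13.2%.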

How the results depend on the processing

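For cKO against Flox, 7 of 10 members were called as deposited, and 7 also with either pseudocount and with the 3 libraries per group of the study's heatmaps. In that fit of 3 libraries per group, 7484 of 11794 genes were called lower, against 1511 of 11804 as deposited. The count of members was 5 with a minimum mean of 5 FPKM, where Ins2 and Chga lost their calls and 1657 of 6224 genes were called lower. The count was 0 with every gene above 0 tested and with the acinar covariate, fits that called no gene at all. Under median-of-ratios scaling it was 0, with 147 of 11782 genes called lower, and under scaling to the sum outside the acinar list 0, with 33 of 11814. It was 1 under β-cell scaling (Chgb, higher), with 57 of 11806 genes higher and 351 lower. It was 3 without the trend and robust fitting, with 974 of 11804 genes lower. The count was 0 under each of the 3 scalings without the trend. Unadjusted exact permutation passed 4 members as deposited, all lower, where 15.4% of all genes were lower without overlap. It passed 3, 3 and 2 members under these scalings, for which the share of all genes was not counted. Those were Ins1 and Chgb higher and Ins2 lower under median-of-ratios scaling. Chgb higher and Ins2 and Iapp lower passed under scaling outside the acinar list, and Ins2 and Slc30a8 lower under β-cell scaling. Leaving out 1 library gave 1 to 8 calls, with 1 without cKO9, 3 without cKO12, 2 without cKO38, 2 without Flox20 and 1 without Flox21, where fewer genes were called overall. Without Flox17 6 members were called, all lower, as were 6759 of all 11821 genes tested. Ins1 reversed to 0.17 under median-of-ratios scaling, 0.16 under scaling outside the acinar list, 0.013 under β-cell scaling, with or without the trend, and 0.17 with the acinar covariate, with which Cpd (0.0079), Pcsk4 (0.090) and Neurod1 (0.11) also reversed. For OE against Ctrl, 0 members were called as deposited and 5 with the acinar covariate, where 10.9% of all genes were called higher. Unadjusted exact permutation passed 7 and 1 under median-of-ratios and outside-acinar scaling. Of all genes 11.9% were higher without overlap under the first, and the share under the second was not counted. Leaving out 1 library gave 0 calls. Under β-cell scaling, with or without the trend, Iapp (-0.049), Pcsk6 (-0.17), Hspa5 (-0.38) and Atp6ap2 (-0.18) reversed, and Pcsk1n (-0.0689) did without Ctrl2 and Ctrl3. Of the ratios, 4 separated cKO from Flox, 0 with differences of medians, whose ties allow no p that small, and 4 to 7 with 1 library left out (7 without Flox16). In OE against Ctrl 0 separated, and 0 to 3 with 1 library left out (3 without Ctrl5). The cause of these changes was not tested. Replicate numbers are shared between groups, but same-numbered libraries did not deviate together (correlations of -0.21 to 0.12 and -0.13 to 0.10). With the replicate block 7 members were called for cKO against Flox, 1 of them higher (Chgb), among 289 higher and 2455 lower of all genes against 120 and 1511 without it, and 0 for OE against Ctrl, and 4 and 0 ratios had all 4 differences of 1 sign. Read numbers were not in the tables, so counting error could not be given.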
